A study of Mus musculus with 28 samples.

Results

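The comparison described here asked whether a cystine diet changed gene expression differently in Lgr5-high and in Lgr5-low cells of the mouse small intestine. For each gene it is the log2 change from control to cystine diet in Lgr5-high cells minus the same change in Lgr5-low cells, called the difference of diet effects below. A positive value means a change further upward, or less far downward, in Lgr5-high cells. All 28 libraries of the series entered, 7 in each of 4 groups: Lgr5-high on control diet, Lgr5-high on cystine diet, Lgr5-low on control diet and Lgr5-low on cystine diet. All of the mice carried the Lgr5-GFP genotype, a reporter in which green fluorescence follows the Lgr5 gene, so every group shares that allele. The labels used here give no strain, age or sex, and do not say how many animals stood behind a group. A p-value here therefore reflects library-to-library spread, part of which may be technical. Over 84 pairs of libraries within groups, the mean chi-square per gene ran from 13.9 to 226, above what counting error alone gives. Each group held libraries both above and below 50 CPM of Xist, a transcript of female cells. The labels name the small intestine as source but describe RNA extraction from organoids, and which of these applies is not settled by them. Of 54354 genes in the table, the 12495 expressed enough to be tested were the members of the comparison.

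Lgr5 is a receptor for R-spondins that strengthens Wnt signalling, and cells at the base of the intestinal crypt that carry much of it act as stem cells. Their daughters lose Lgr5 and become absorptive enterocytes or secretory goblet, Paneth, enteroendocrine and tuft cells. Cystine is the oxidised dimer of cysteine. Cells reduce it to cysteine and use that for protein, glutathione, coenzyme A, taurine and iron-sulfur clusters.

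The populations carried the marker that names them: Lgr5 had a median of 33.2 CPM (counts per M, the mega of total counts, after TMM scaling) in Lgr5-high control libraries and 4.09 CPM in Lgr5-low control libraries, with no overlap on either diet. Total counts per library ran from 2.75 to 21.5 M (mega), and 7 libraries were under 5 M, 3 of them Lgr5-high on cystine diet. Depth itself showed a difference of diet effects. On the log2 scale total counts were lower by -1.22 on cystine diet in Lgr5-high cells and higher by 0.70 in Lgr5-low cells, an interaction of -1.92 (exact permutation of diet labels, two-sided, p = 0.00774). The share of counts from mitochondrially encoded genes was 1.19 percentage points higher on cystine diet in Lgr5-high cells and changed by -1.38 points in Lgr5-low cells, a difference of 2.57 points that did not pass (exact permutation test, p = 0.179). Replicate 1 of the Lgr5-high cystine group stood apart from the other 6 libraries of its group. At 14.9 M it was the deepest of them, and it carried the lowest level of macrophage genes, so values without it are given for the genes and lists it divides. Of the 104 tested genes named here 2, H2aj and Olfm4, moved by more than 1.5 times without it.

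No gene passed the threshold of an adjusted p of 0.05 (edgeR quasi-likelihood test with Benjamini-Hochberg adjustment), and the smallest adjusted p was 0.493. At an unadjusted p under 0.05 there were 415 genes, 3.32% of those tested, 182 positive (1.46%) and 233 negative (1.86%). With RLE size factors in place of TMM that split was 222 to 188. If no gene differed, 624.8 would be expected at that level. DESeq2 called 0 genes, with 542 at an unadjusted p under 0.05. limma-voom with sample quality weights called 6 genes, with 733 at that level. For comparison, within Lgr5-high cells 21 genes (0.168%) passed for diet, and within Lgr5-low cells 0 did. That contrast between calls is not itself a test, and the test of the difference called none of the 12495 genes.

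The size that the data could have shown depended on the level of a gene. The median standard error of the difference was 0.62 log2 units over all genes, and the median 95% interval reached 1.26 units to either side. Among the 1065 genes above 100 CPM the median standard error was 0.27, and for 891 of them the interval lay wholly within 1 log2 unit of 0. Among 4317 genes between 2 and 10 CPM the standard error was 0.81, and 13 had such an interval. Over all genes this held for 2865 (22.9%), and for 7369 (59%) the interval lay within 2 log2 units. A difference of 2-fold was therefore outside the interval for most abundant genes and inside it for most others.

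The diet effects of the populations had little in common across genes. Over the 12495 genes the Pearson correlation of the log2 changes was 0.10 and the Spearman correlation 0.057, a description across genes, which are not independent and share libraries and scaling. The log2 changes had an SD of 0.66 in Lgr5-high and 0.64 in Lgr5-low cells, and their median standard errors were 0.44 in each. Errors of that size lower a correlation, so these values do not show that the true effects differed. The log2 changes had opposite signs in 6043 of the 12495 genes. Among the 415 genes at an unadjusted p under 0.05 they had opposite signs in 353, as the choice of a large difference favours. The change was larger in size in Lgr5-high cells in 252 of the 415. That share was not computed over all genes, so no lean is read from it.

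**Figure D1:**
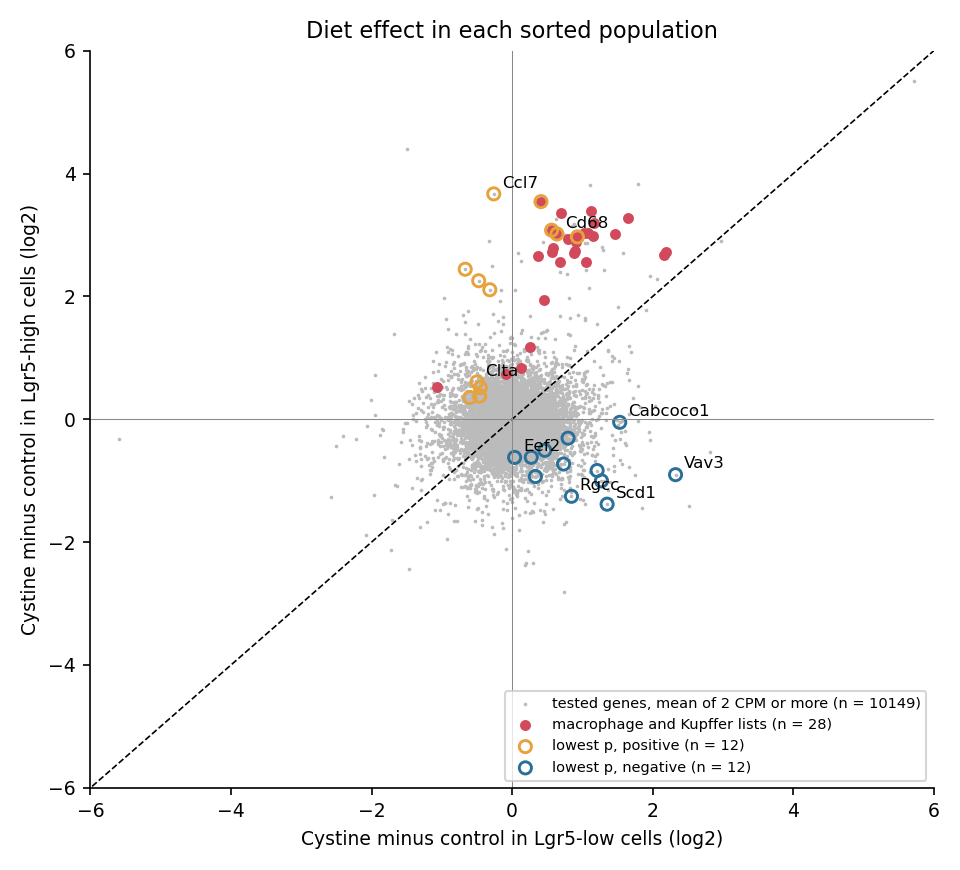
Log2 change from control to cystine diet in Lgr5-low cells (x axis) and Lgr5-high cells (y axis), 1 point per gene with a mean of at least 2 CPM, with the tested macrophage and Kupffer cell genes of any level filled and the 12 lowest-p genes of either direction ringed. The dashed line marks equal changes. Most macrophage and Kupffer genes lie between 2 and 4 on the y axis and right of 0 on the x axis, above the dashed line.

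Genes of macrophages formed the clearest group on the positive side, although none passed the adjusted threshold. The list of macrophage and Fc receptor genes held 20 genes, of which 18 passed the low-count filter. All 18 were positive, with a median of 2.03 log2 units beside -0.03 over all tested genes, and 10 were at an unadjusted p under 0.05 beside 1.46% of all genes. Genes that reach the filter mainly through the group where they are high are favoured in such a count. In Lgr5-high cells the median change of the list with cystine was 2.84, and in Lgr5-low cells it was 0.66, so the estimates were above 0 in both populations and larger in Lgr5-high cells. This list, like the others here, was chosen with earlier results of these data known, so its counts and sum are not independent of them. The sum over all 20 genes, which the low-count filter does not touch, ran from 97.7 through a median of 757 to 1216 CPM in Lgr5-high cystine libraries. It ran from 112.0 through 134 to 192 CPM in Lgr5-high control libraries. In Lgr5-low cells it ran from 66.2 through 107 to 216 CPM on control and from 111 through 148 to 327 CPM on cystine diet. Thus 6 of the 7 Lgr5-high cystine libraries lay above all the other libraries, and replicate 1 lay below every Lgr5-high control library. In bulk libraries more cells of a type and more RNA per cell cannot be told apart.

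Cd68, a lysosomal glycoprotein used as a macrophage marker (chromosome 11, 69664213 to 69666153, minus strand, GRCm38), had the lowest p of the list. Its level in Lgr5-high cells ran from 3.38 through a median of 7.45 to 10.4 CPM on control diet and from 5.24 through 68.8 to 97.3 CPM on cystine diet. In Lgr5-low cells it ran from 2.67 through 7.08 to 15.4 CPM on control and from 6.79 through 7.74 to 26.2 CPM on cystine diet. So 6 of 7 Lgr5-high cystine libraries lay above all Lgr5-high controls, while the Lgr5-low groups overlapped. The difference of diet effects was 2.38 ± 0.61 (SE, 95% interval 1.14 to 3.61, unadjusted p = 0.000407, adjusted p = 0.726). Within Lgr5-high cells alone the rise of 3.02 passed (adjusted p = 0.000596), and within Lgr5-low cells the change was 0.64. Without Lgr5-high cystine replicate 1 the difference for Cd68 was 2.55 with an adjusted p of 0.0913.

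Fcer1g encodes the signalling chain shared by Fc receptors, and its level rose in all 7 Lgr5-high cystine libraries above every control (median 39.8 against 5.42 CPM, change 2.97, adjusted p = 0.000402). Its Lgr5-low medians were 5.99 CPM on cystine and 4.07 CPM on control diet, and its difference of diet effects was 2.04 ± 0.59 (SE, unadjusted p = 0.00124). Tyrobp, an adaptor of activating receptors on myeloid cells, had medians of 65.6 and 6.53 CPM in Lgr5-high cells and 7.276 and 5.68 CPM in Lgr5-low cells on cystine and control diet, with a difference of 2.52 ± 0.72 (unadjusted p = 0.00153), or 2.70 without Lgr5-high cystine replicate 1. Pla2g7, a secreted phospholipase that cleaves platelet-activating factor, measured 8.73 and 0.548 CPM in Lgr5-high cells and 1.801 and 0.847 CPM in Lgr5-low cells (difference 3.13 ± 0.96, unadjusted p = 0.00239). These 3 genes share a pattern: the Lgr5-high cystine group is the odd one of the 4. The remaining 6 at an unadjusted p under 0.05 were Cd300c2, Wfdc17, Lyz2, Ctss, Fcgr3 and Cd14, with differences between 0.83 and 2.67. Fcgr1 and Cx3cr1 did not pass the low-count filter.

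Kupffer cells are the resident macrophages of the liver, and several genes used to mark them followed. Of 12 listed genes 10 were tested. All 10 were positive (median 1.73), and 5 were at an unadjusted p under 0.05 beside 1.46% of all genes, a count that the filter favours as above. The median change with cystine was 2.84 in Lgr5-high cells and 1.11 in Lgr5-low cells, so the estimates lay above 0 in both. The sum over all 12 genes, filtered or not, ran from 10.01 through a median of 240.4 to 445.5 CPM in Lgr5-high cystine and from 20.6 through 39.7 to 44.3 CPM in Lgr5-high control libraries. The Lgr5-low libraries ran from 30.8 through 51.1 to 89.1 CPM on cystine and from 14.1 through 18.9 to 67.5 CPM on control diet. Both pairs of groups overlapped. Clec4f, a lectin receptor characteristic of Kupffer cells, had medians of 75.5 and 8.61 CPM in Lgr5-high cells on cystine and control diet. In Lgr5-low cells the medians were 7.281 and 3.33 CPM, and the difference was 1.83 ± 0.76 (unadjusted p = 0.0225). The complement subunit gene C1qb (difference 2.21), the folate receptor gene Folr2 (1.96), the complement receptor gene Vsig4 (2.03) and Cd5l, a secreted scavenger protein of macrophages (1.98), gave similar values. In C1qb, Folr2, Vsig4 and Clec4f, 6 Lgr5-high cystine libraries lay above all Lgr5-high controls and replicate 1 lay below all of them. Without replicate 1 the differences were 2.40, 2.14, 2.22 and 2.02 in that order, and the Kupffer list had a median of 1.92 with 6 of 10 members at an unadjusted p under 0.05 beside 1.44% of all genes in that fit. C1qa and Cdh5 did not pass the low-count filter.

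Macrophage level was higher in the shallower of the Lgr5-high cystine libraries. The summed macrophage level was 923, 1216 and 1201 CPM in the 3 libraries under 5 M. It was 757 CPM at 5.32 M, 477 and 425.5 CPM at 8.92 and 9.12 M, and 97.7 CPM at 14.9 M. The Lgr5-high control library of 4.05 M measured 129.6 CPM, inside the range of its group. Without the 7 libraries under 5 M, the macrophage list had a median of 1.25, 18 of 19 tested members positive and 3 positive members at an unadjusted p under 0.05 beside 1.75% of all genes in that fit, and the Kupffer list had a median of 0.53 with 8 of 10 positive and 0 at that level. With every library thinned to the depth of the shallowest, the macrophage median was 2.15 with 10 of 10 positive. Leaving out only Lgr5-high cystine replicate 1 gave a median of 2.19 and 13 members at an unadjusted p under 0.05 beside 1.44% of all genes. Defining markers of neither list were at 0 in all libraries. The part of depth, or of the cells collected, in these values was not tested.

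**Figure D2:**
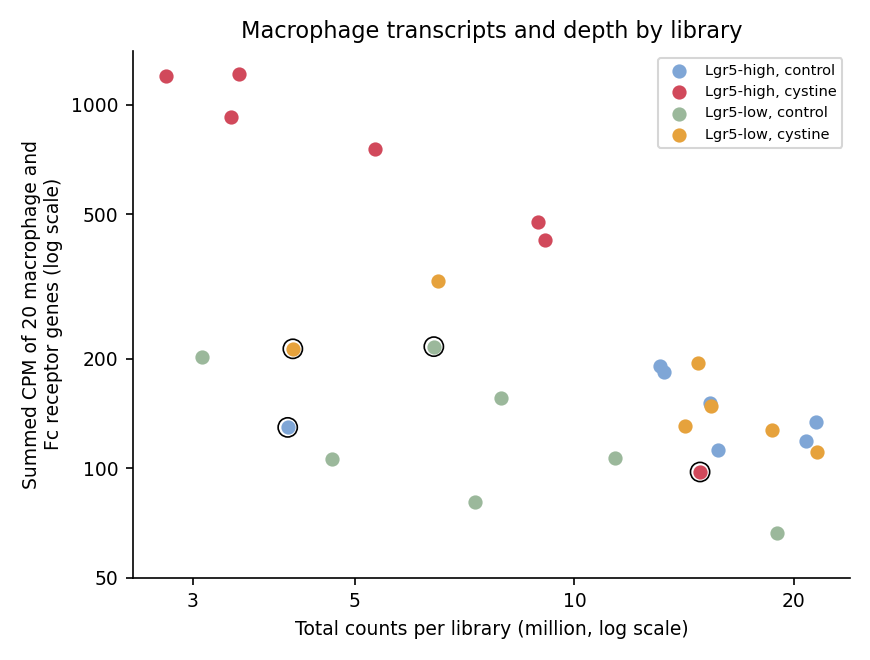
Summed CPM of the 20 macrophage and Fc receptor genes (y axis, log scale) against total counts in M (x axis, log scale), 1 point per library coloured by group, with replicate 1 of each group ringed. The 6 Lgr5-high cystine libraries other than replicate 1 lie between 425.5 and 1216 CPM, and replicate 1 lies at 97.7 CPM and 14.9 M.

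The promoters of Cd68 and Fcer1g are shown because these genes moved together with the lowest p-values of the macrophage list. They run from 250 bases before to 50 after the gene start (RefSeq, GRCm38.p6, both on the minus strand, 5′ to 3′). Capitals mark matches to GAGGAA or its complement TTCCTC, a purine-rich core of the kind bound by PU.1, a transcription factor of myeloid cells. The motif was chosen with the results known. Of 32851 RefSeq promoters of this length 28.3% hold it on either strand.
Cd68, chr11:69666121-69666420: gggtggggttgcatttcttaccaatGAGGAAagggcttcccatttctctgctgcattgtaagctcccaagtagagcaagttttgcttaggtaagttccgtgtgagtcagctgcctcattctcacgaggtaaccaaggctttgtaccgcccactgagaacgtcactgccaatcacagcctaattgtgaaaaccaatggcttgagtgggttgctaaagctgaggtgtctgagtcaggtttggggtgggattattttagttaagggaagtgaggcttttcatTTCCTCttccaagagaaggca
Fcer1g, chr1:171234300-171234599: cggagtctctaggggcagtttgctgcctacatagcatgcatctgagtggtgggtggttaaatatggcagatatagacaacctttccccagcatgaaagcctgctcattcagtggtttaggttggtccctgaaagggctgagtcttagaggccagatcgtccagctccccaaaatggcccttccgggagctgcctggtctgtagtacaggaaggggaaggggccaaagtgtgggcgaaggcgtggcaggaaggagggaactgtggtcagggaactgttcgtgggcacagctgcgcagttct
The Cd68 window held 2 matches and the Fcer1g window 0. A match is a description of letters, and its absence from the window says nothing about the factor. Of the genes described here next to them, Tyrobp had no entry in the table.

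Other genes of immune cells were among the 12 positive genes of lowest p. Srgn encodes the proteoglycan core of secretory granules in blood cells. Its median in Lgr5-high cells was 6.56 CPM on cystine and 1.01 CPM on control diet, and in Lgr5-low cells 0.952 and 1.48 CPM, a difference of 3.11 ± 0.95 (unadjusted p = 0.00232), or 3.279 without Lgr5-high cystine replicate 1. Arhgdib, a GTPase regulator of leukocytes, had a difference of 2.73. Ccl7, a chemokine that attracts monocytes, had a difference of 3.93 from low levels, with medians of 5.52 CPM in Lgr5-high cystine libraries and no more than 0.358 CPM in the other groups. Il2rg, the common chain of several interleukin receptors, had a difference of 2.43. In each of these 4 genes 6 of 7 Lgr5-high cystine libraries lay above all Lgr5-high controls, and the low population leaned the other way by between -0.26 and -0.67. The choice of large positive differences favours such opposite signs.

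The remaining positive genes of the 12 are widely expressed and showed smaller differences at much better precision. Clta, the clathrin light chain A gene (chromosome 4, 44004452 to 44032846, plus strand, GRCm38), had the lowest p of the 12. In Lgr5-high cells it ran from 27.8 through a median of 56.2 to 66.5 CPM on control and from 52.8 through 69.5 to 156 CPM on cystine diet. In Lgr5-low cells it ran from 64.4 through 84.9 to 112 CPM on control and from 56.2 through 61.3 to 67.3 CPM on cystine diet. So 5 of 7 Lgr5-high cystine libraries lay above their controls, and 6 of 7 Lgr5-low cystine libraries lay below theirs. The difference was 1.11 ± 0.27 (SE, 95% interval 0.56 to 1.66, unadjusted p = 0.000223, adjusted p = 0.558), and 0.85 without Lgr5-high cystine replicate 1. Mpv17l, a relative of a mitochondrial inner membrane protein, had medians of 25.1 and 16.2 CPM in Lgr5-high cells on cystine and control diet and 13.5 and 16.3 CPM in Lgr5-low cells, a difference of 0.97 ± 0.31 (unadjusted p = 0.00309). Ap5s1, a subunit of an adaptor complex of late endosomes, had a difference of 0.96. Sap18b had one of 0.84, and it resembles Sap18, so its share of reads is uncertain.

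**Figure D3:**
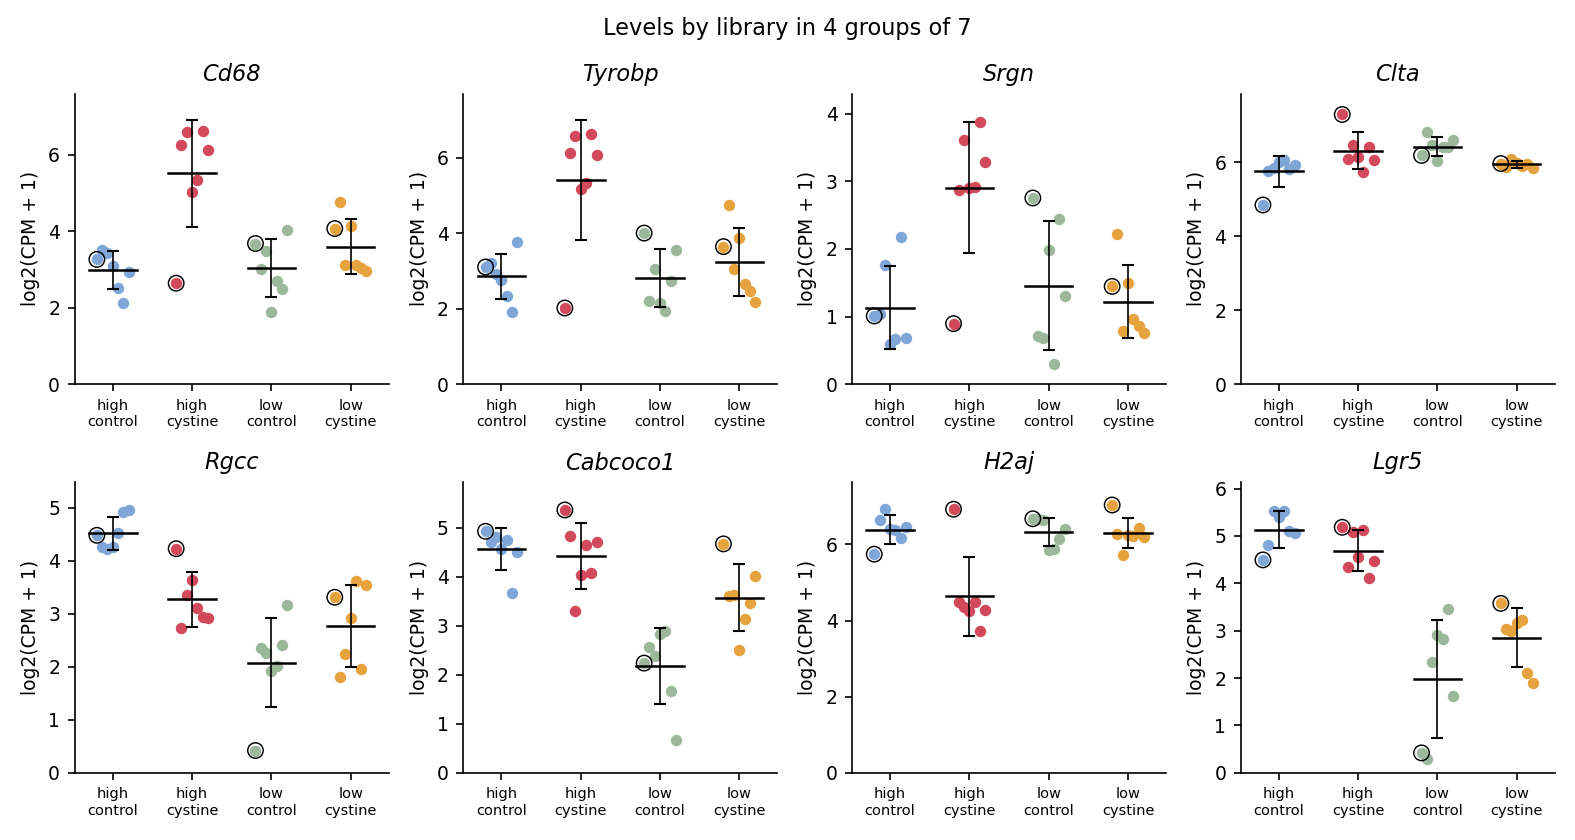
Levels of 8 genes as log2(CPM + 1), 1 point per library in the 4 groups, with the group mean (line), its SD (bar) and replicate 1 of each group ringed. In Cd68, Tyrobp and Srgn the Lgr5-high cystine libraries other than replicate 1 stand above the rest, and in H2aj 6 of them stand below.

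On the negative side 10 of the 12 genes of lowest p had a diet effect below -0.5 in Lgr5-high cells, and the estimate in Lgr5-low cells was above 0 in all 12. The choice of large negative differences favours these signs. Over all 12495 genes the signs were opposite in 6043. Rgcc, a regulator of cell cycle kinases (chromosome 14, 79288756 to 79301645, minus strand, GRCm38), had the lowest p. In Lgr5-high cells it ran from 17.6 through a median of 21.3 to 29.8 CPM on control and from 5.59 through 7.65 to 17.7 CPM on cystine diet. In Lgr5-low cells it ran from 0.337 through 3.79 to 7.998 CPM on control and from 2.49 through 6.51 to 11.2 CPM on cystine diet. So 6 of 7 Lgr5-high cystine libraries lay below all of their controls, and the populations came closer together on cystine diet. The difference was -2.10 ± 0.57 (SE, 95% interval -3.25 to -0.95, unadjusted p = 0.000687, adjusted p = 0.9998). The value was -2.37 without Lgr5-high cystine replicate 1.

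Orm1, an acute-phase plasma glycoprotein, had medians of 2.49 and 5.48 CPM in Lgr5-high cells on cystine and control diet and 6.49 and 2.36 CPM in Lgr5-low cells (difference -2.27 ± 0.64, unadjusted p = 0.000975). Gstt1, a glutathione transferase, had 40.6 and 59.6 CPM in Lgr5-high cells and 64.9 and 44.9 CPM in Lgr5-low cells (difference -0.97 ± 0.29, unadjusted p = 0.00192). These are crossed patterns, in which the 2 populations moved in opposite directions by their estimates, as the choice of these genes favours. Cabcoco1 differed in kind: its level in Lgr5-high cells was about the same on both diets (medians 24.2 and 25.1 CPM), and it was higher on cystine diet in Lgr5-low cells (11.1 against 4.24 CPM), where 6 of 7 libraries lay above all controls. Its difference was -1.58 ± 0.50, but -0.89 without the libraries under 5 M. Vav3, a guanine nucleotide exchange factor, had a difference of -3.23 that rested on Lgr5-low control libraries with a median of 0 CPM, so its size depends on how zeros were handled.

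Scd1 encodes the desaturase that makes monounsaturated fatty acids. Its medians were 4.49 and 15.1 CPM in Lgr5-high cells on cystine and control diet and 26.2 and 14.2 CPM in Lgr5-low cells. In Lgr5-high cells 6 of 7 cystine libraries lay below all controls and 1 lay above them, and in Lgr5-low cells 5 of 7 lay above. The difference was -2.73 ± 0.89 (unadjusted p = 0.00495), and it ran from -9.09 to -1.58 over the other settings tried. Eef2, the ribosome translocation factor, showed a difference of -0.66 ± 0.22, with 6 of 7 Lgr5-high cystine libraries (median 132 CPM) below every control (222 CPM) and overlapping Lgr5-low groups. Without Lgr5-high cystine replicate 1, at 224 CPM the exception, it was -0.84. Dsg2, a desmosomal cadherin, gave -0.89 with 6 of 7 Lgr5-high cystine libraries below their controls. Fam98b, Nom1, Vps52 and Uox, the urate oxidase gene, gave -1.26, -1.10, -2.04 and -1.46.

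Genes of hepatocytes were a second group on the negative side. All 24 listed genes were tested, 20 were negative (median -0.62), and 5 were at an unadjusted p under 0.05 beside 1.86% of all genes: Mup20, Hpx, Gc, Hp and Apoa2. Mup20, a major urinary protein of a family of near-identical copies, had medians of 61.3 and 82.9 CPM in Lgr5-high cells on cystine and control diet and 170.1 and 53.6 CPM in Lgr5-low cells, a difference of -1.87 ± 0.62 (unadjusted p = 0.00575). Hpx, the plasma protein that binds haem, gave -1.46, and Gc, the vitamin D binding protein, gave -1.16. The sum over the 24 genes ran from 1391 to 2845 CPM in Lgr5-high cystine and from 1429 to 2801 CPM in Lgr5-high control libraries. In Lgr5-low cells it ran from 1505 to 3230 CPM on cystine and from 1072 to 2399 CPM on control diet, so all groups overlapped. Without the libraries under 5 M the list median was -1.40 and 15 members were negative at an unadjusted p under 0.05, beside 2.98% of all genes in that fit. Of 7 erythrocyte genes 3 were tested, all negative, with Hba-a2 at -2.43 (unadjusted p = 0.0474) and Hbb-bs at -1.09. Slc4a1, a defining erythrocyte gene, was at 0 in all libraries.

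**Figure D4:**
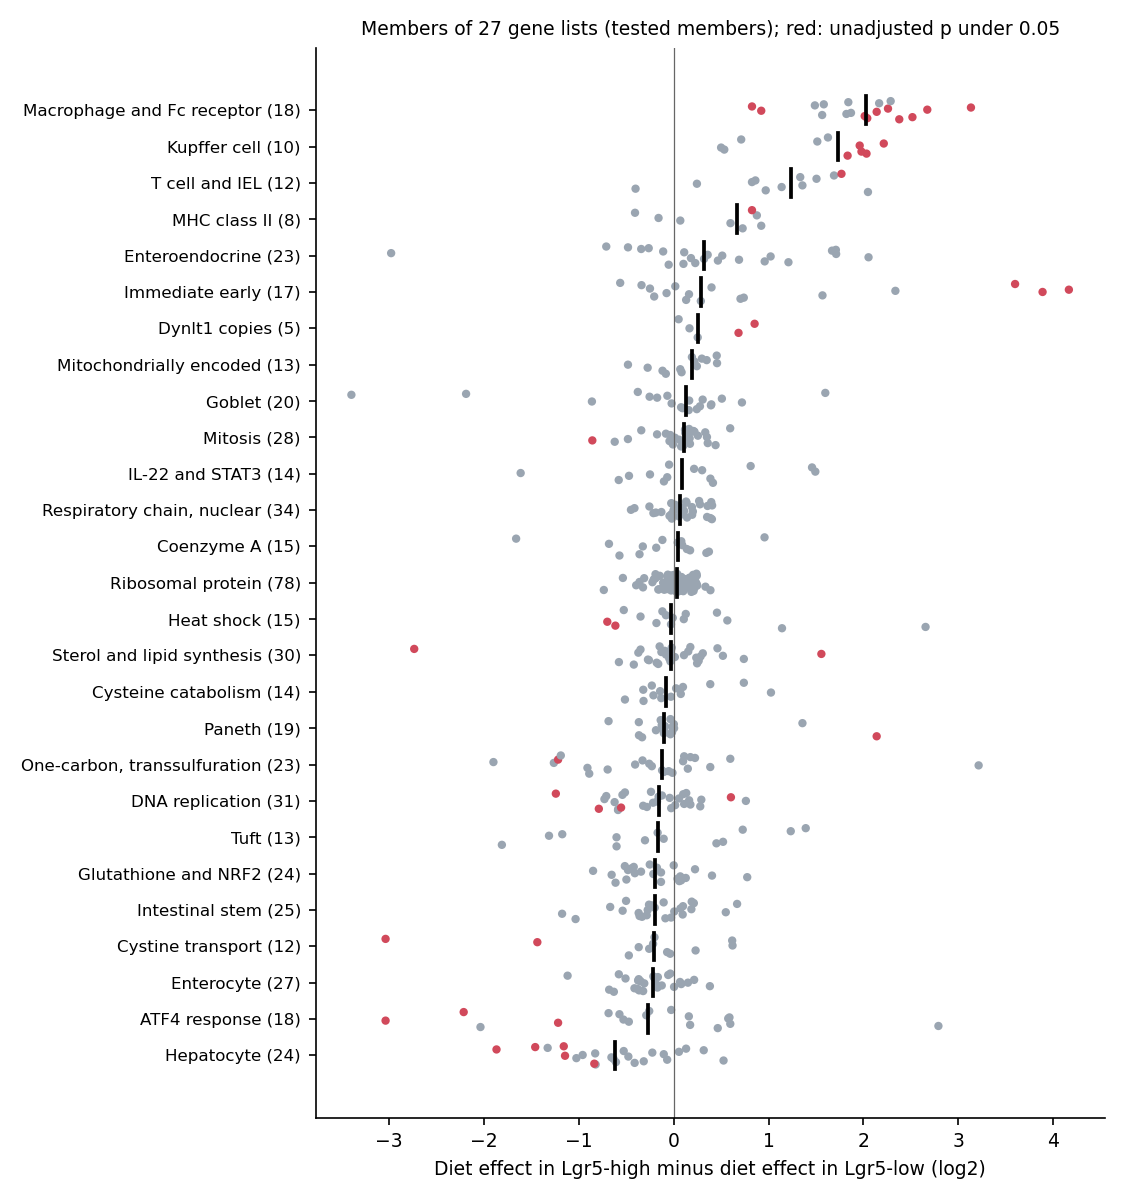
Difference of diet effects (log2, x axis) of the tested members of 27 gene lists, 1 point per gene, in red where the unadjusted p was under 0.05, with the list median as a black bar and the number of tested members in brackets. The macrophage, Kupffer and T cell lists lie to the right of 0 and the hepatocyte list to the left, and the medians of most other lists lie within 0.3 of 0.

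Stem cell genes showed no difference that passed. Of 26 listed genes 25 were in the table and tested, 9 positive and 16 negative, with a median of -0.20 and 0 at an unadjusted p under 0.05. For 9 of them the 95% interval lay within 1 log2 unit of 0, and for 18 within 2. Lgr5 itself had medians of 22.4 and 33.2 CPM in Lgr5-high cells on cystine and control diet and 7.18 and 4.09 CPM in Lgr5-low cells. Its difference was -1.03 ± 0.58 (95% interval -2.20 to 0.13, unadjusted p = 0.0804), and it ran from -2.69 to -0.44 over the other settings. Olfm4, a glycoprotein that crypt base cells secrete, was measured far more tightly. Its medians were 4471 and 4962 CPM in Lgr5-high and 1440.0 and 1074 CPM in Lgr5-low cells, and its difference was -0.09 ± 0.34 (95% interval -0.77 to 0.60), with a sign that flipped under 5 other settings. Rgmb, a repulsive guidance molecule, gave 0.55 and Cdk6, a cyclin-dependent kinase, -0.67, and neither interval excluded 0. Among Notch pathway genes 13 of 20 were tested and 11 were negative. Of the 13, 1 was negative at an unadjusted p under 0.05, beside 1.86% of all genes. Rbpj, the DNA-binding partner of the Notch intracellular domain, gave -1.42 (unadjusted p = 0.0145), and its target Hes1 gave -0.62.

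The differentiated lineages had list medians close to that of all genes. Enterocyte genes were negative in 21 of 27 (median -0.21), with 0 at an unadjusted p under 0.05. Cdhr5, a protocadherin of the brush border, gave -1.12 ± 0.57 (unadjusted p = 0.0557), and Krt20, a keratin of mature villus cells, gave -0.51. Goblet genes were positive in 12 of 20 (median 0.13), again with 0 at that level. Creb3l4, a transcription factor of secretory cells, came nearest, with 0.72 (unadjusted p = 0.05003). Enteroendocrine genes were positive in 16 of 23 tested (median 0.32), with 0 at that level. Gcg, the precursor of glucagon-like peptides, had medians of 50.3 and 35.4 CPM in Lgr5-high cells on cystine and control diet and 87.9 and 85.7 CPM in Lgr5-low cells, a difference of 1.21 ± 0.62 (unadjusted p = 0.0620). Scg2 and Cpe, a granule protein and the peptide-processing carboxypeptidase E, gave 1.71 and 1.67. Paneth genes were negative in 15 of 19 (median -0.10). The exception at an unadjusted p under 0.05 was Lyz2 at 2.14, the lysozyme copy of myeloid cells, which the macrophage list also holds. In the tuft list 13 of 15 were tested, with a median of -0.17. Trpm5, a taste-pathway cation channel, gave -1.81 and Hpgds, a prostaglandin D synthase, gave 1.39.

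The title of the study concerns interleukin 22 made by T cells, so these genes were examined in both populations. Il22 and Ifng had 0 counts in all 28 libraries. Over 306.4 M counts in all, 0 allows up to 0.00979 CPM, and per library between 0.139 and 1.09 CPM, for counting error only. Il22ra1, a chain of the receptor, reached at most 1.21 CPM and was not tested. Of the genes of the interleukin 22 and STAT3 response, 14 of 24 were tested, 7 in each direction (median 0.08), with 0 at an unadjusted p under 0.05. Their median change with cystine was 0.19 in Lgr5-high and 0.01 in Lgr5-low cells. The sum over all 24, which abundant genes weigh on most, was higher on cystine diet in both populations. Its medians were 4345 and 1413 CPM in Lgr5-high and 12590 and 2542 CPM in Lgr5-low cells on cystine and control diet, with overlap. Saa1, an acute-phase protein, gave -1.61 ± 0.84, and Pim1, a kinase induced by STAT signals, gave 1.46 ± 0.84. Of the T cell and intraepithelial lymphocyte genes 12 of 23 were tested, 11 of them positive (median 1.24). The low-count filter favours such a count, as for the macrophage list. Of the 12, 1 was positive at an unadjusted p under 0.05, beside 1.46% of all genes. Cd52, a small leukocyte surface protein that myeloid cells carry too, gave 1.77 (unadjusted p = 0.0244), with 6 of 7 Lgr5-high cystine libraries above all their controls. Cd3d, a subunit of the T cell receptor complex, gave 2.05 ± 1.56, and the granzyme gene Gzma gave 1.36 ± 0.89. The sum of the list ran from 51.3 to 376 CPM in Lgr5-high cystine and from 20.4 to 148 CPM in Lgr5-high control libraries, and the groups overlapped. Among antigen presentation genes of class II, 8 of 11 were tested and 6 were positive (median 0.66). Of the 8, 1 was positive at an unadjusted p under 0.05, beside 1.46% of all genes. Ctss, a lysosomal protease that the macrophage list also holds, gave 0.83 (unadjusted p = 0.0166), and Cd74, the invariant chain, gave 0.88.

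Genes that handle cystine and cysteine showed no difference that passed the adjusted threshold. Among the transporters 12 of 14 were tested, 3 positive and 9 negative (median -0.21). Of these, 2 were negative at an unadjusted p under 0.05, beside 1.86% of all genes. Ctns, the lysosomal exporter of cystine, had medians of 2.55 and 5.46 CPM in Lgr5-high cells on cystine and control diet and 5.99 and 3.18 CPM in Lgr5-low cells. Of the Lgr5-high cystine libraries 5 of 7 lay below all their controls, and the difference was -1.44 ± 0.63 (95% interval -2.71 to -0.16, unadjusted p = 0.0281). Slc7a5, a carrier of large neutral amino acids at a mean of 1.09 CPM, gave -3.04 (unadjusted p = 0.0306). Slc38a2, a carrier of small neutral amino acids, gave 0.62, and Slc3a2, the partner chain of several exchangers, gave -0.47. Slc7a11, the cystine and glutamate exchanger, did not pass the low-count filter. Of cysteine catabolism 14 of 15 genes were tested (median -0.08), with 0 at an unadjusted p under 0.05. Cdo1, the dioxygenase that starts cysteine breakdown, gave -0.32 ± 0.34, and Tst, a sulfur transferase, gave 1.03 ± 0.94.

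The lists of glutathione, coenzyme A, iron-sulfur, one-carbon and ATF4 genes had medians between -0.27 and 0.04. Of the glutathione and NRF2 genes 24 of 28 were tested, 9 positive and 15 negative (median -0.20), 0 at an unadjusted p under 0.05, and 12 had an interval within 1 log2 unit of 0. Nfe2l2, the gene of NRF2 itself, had medians of 88.7 and 101 CPM in Lgr5-high cells on cystine and control diet and 139.8 and 109 CPM in Lgr5-low cells, a difference of -0.42 ± 0.21 (unadjusted p = 0.0559). Pgd and Tkt, enzymes of the pentose phosphate pathway, gave -0.41 and -0.34. The coenzyme A genes had 8 positive and 7 negative of 15 tested. Slc5a6, a vitamin carrier that takes up pantothenate, gave -1.66 and Nudt7, a peroxisomal coenzyme A hydrolase, gave -0.68. For Nudt7, 6 of 7 Lgr5-high cystine libraries lay below all their controls. Among iron-sulfur assembly genes Nfu1, a cluster carrier, gave 0.37 ± 0.28. One-carbon and transsulfuration genes had 8 positive and 15 negative, with Phgdh, the entry enzyme of serine synthesis, at -1.22 (unadjusted p = 0.0457) and Gnmt, a glycine methyltransferase, at -1.19. ATF4, the transcription factor of amino acid stress, had 7 positive and 11 negative of 18 tested targets and related genes. Gpt2, a mitochondrial alanine aminotransferase, gave -2.21 (unadjusted p = 0.0151), Slc7a5 and Phgdh appear in this list too, and Atf4 itself gave 0.46. Gpt2, Slc7a5 and Phgdh were the 3 negative members at an unadjusted p under 0.05, beside 1.86% of all genes.

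The lists of growth and stress genes had medians between -0.16 and 0.29, with larger values in single genes. DNA replication genes were negative in 19 of 31 (median -0.16). At an unadjusted p under 0.05 were 3 negative and 1 positive, beside 1.86% and 1.46% of all genes. Uhrf1, which maintains DNA methylation at the fork, gave -1.24 ± 0.45, and the helicase subunits Mcm6 and Mcm4 gave -0.55 and -0.79. Rfc4, a clamp loader subunit, gave 0.60. For Mcm6, 6 of 7 Lgr5-high cystine libraries lay below all their controls (medians 53.0 and 74.2 CPM), and the Lgr5-low medians were 64.3 and 62.9 CPM. Mitosis genes were positive in 19 of 28 (median 0.11). Aurkb, a kinase of chromosome segregation, gave -0.86 (unadjusted p = 0.0294) and Ccnb1, a mitotic cyclin, 0.44. Among heat shock genes Hspa8 and Dnaja1, a constitutive chaperone and its partner, gave -0.61 and -0.70 (unadjusted p = 0.0207 and 0.0292). They were the 2 of 15 tested members that were negative at an unadjusted p under 0.05, beside 1.86% of all genes. In both the Lgr5-high groups overlapped and 5 of 7 Lgr5-low cystine libraries lay above all their controls. For Hspa8 the Lgr5-low medians were 2166 and 1430.0 CPM on cystine and control diet. Immediate early genes were positive in 12 of 17 tested (median 0.29). The 3 positive at an unadjusted p under 0.05, beside 1.46% of all genes, were Atf3 (3.89), Klf2 (4.16) and Cyr61 (3.60). Each averaged under 2 CPM. Myc gave -0.56, Btg2 -0.34 and Junb 0.74. Sterol and lipid synthesis genes split 13 to 17. Scd1 and Dhcr7, a late enzyme of cholesterol synthesis, were the 2 at an unadjusted p under 0.05, beside 3.32% of all genes. Dhcr7 had medians of 6.29 and 3.80 CPM in Lgr5-high cells and 4.43 and 7.59 CPM in Lgr5-low cells, a difference of 1.56 ± 0.69, and Lss, a cyclase of the same pathway, gave 0.74.

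The abundant housekeeping groups gave the narrowest intervals, and these bound how far the populations could have differed. Of 78 ribosomal protein genes 49 were positive and 29 negative (median 0.04), and for 74 the interval lay within 1 log2 unit of 0. Rps15 gave -0.54 ± 0.29 and Rpl23 0.335 ± 0.22. Of 34 nuclear genes of the respiratory chain 32 had such an interval (median 0.07), with Cox5b at 0.36 and Cyc1 at -0.41. Of 13 mitochondrially encoded genes 11 had such an interval (median 0.19), with mt-Cytb at 0.45 and mt-Co1 at 0.46. None of these was at an unadjusted p under 0.05. Among 12 tested elongation genes, Eef2 was the one at that level, in the negative direction beside 1.86% of all genes, and Eif5a gave -0.44. The genes of the dynein light chain Dynlt1 and its relatives, which are near-identical copies so that reads may be divided unevenly among them, were positive in 5 of 5. Dynlt1f gave 0.85 and Dynlt1b 0.68 (unadjusted p = 0.0170 and 0.0413). They were the 2 positive members at an unadjusted p under 0.05, beside 1.46% of all genes. Since the copies may share reads, their 5 signs are not separate observations. Dynlt1b had medians of 397 and 147 CPM in Lgr5-high cells on cystine and control diet and 314 and 224 CPM in Lgr5-low cells.

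List medians near 0 should be read with their range over the 13 settings other than leaving out single libraries. The stem cell median ran from -0.40 to 0.14, the goblet from -0.68 to 0.33, the Paneth from -0.14 to 0.63 and the enterocyte from -1.22 to 0.28. The cystine transport median ran from -0.87 to 0.15, the DNA replication median from -0.21 to 0.25 and the ribosomal protein median from -0.20 to 0.37. The macrophage median stayed above 0, from 0.61 to 2.46, and the hepatocyte median below 0, from -1.40 to -0.51. A kept sign was not particular to these lists. The T cell median ran from 0.87 to 1.32, the tuft from -0.37 to -0.12 and the Notch from -0.46 to -0.07. The mitosis median ran from 0.04 to 0.36 and the mitochondrially encoded from 0.13 to 0.25. The Kupffer median stayed above 0 but fell as low as 0.08.

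A handful of genes passed under another setting, and they are described because of that, after their values were seen. Gm9493, a processed pseudogene on chromosome 19 (23619749 to 23620319, plus strand, GRCm38), had the smallest p of all genes. In Lgr5-high cells it ran from 4.56 through a median of 8.12 to 11.8 CPM on control and from 14.9 through 25.04 to 47.6 CPM on cystine diet, without overlap. In Lgr5-low cells it ran from 8.10 through 17.6 to 27.4 CPM on control and from 5.17 through 6.79 to 35.6 CPM on cystine diet, where 5 of 7 cystine libraries lay below all controls and replicate 1 lay above them. The difference was 2.38 ± 0.52 (unadjusted p = 5.27e-05, adjusted p = 0.493). It passed with limma-voom (2.90, adjusted p = 0.000430), without the libraries under 5 M (2.83, adjusted p = 0.0297), without Lgr5-low cystine replicate 1 (2.97, adjusted p = 0.000680) and in libraries with Xist above 50 CPM alone (3.04, adjusted p = 0.000635), the last 3 by edgeR. All 3 of these edgeR settings left out Lgr5-low cystine replicate 1 (4.11 M counts, 8.90 CPM of Xist), so they are not separate results. In libraries with Xist at or below 50 CPM Gm9493 was at 0.99 (adjusted p = 0.864). Gm15500, a transcribed processed pseudogene on chromosome 7 (114705217 to 114706235, minus strand), had 345 and 197 CPM in Lgr5-high cells, without overlap, and 196.6 and 227 CPM in Lgr5-low cells, a difference of 1.03 ± 0.24 that passed with limma-voom (adjusted p = 0.0227). Reads of a processed pseudogene may come from its parent gene.

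H2aj encodes a variant of histone H2A. It ran from 52.7 through a median of 84.0 to 121 CPM in Lgr5-high control libraries and from 12.2 through 19.4 to 121 CPM in Lgr5-high cystine libraries. The highest cystine value was replicate 1 (120.65 CPM), and the other 6 libraries lay between 12.2 and 21.6 CPM, below every control. In Lgr5-low cells the medians were 75.7 and 83.2 CPM on cystine and control diet, with overlap. The difference was -1.34 ± 0.50 (unadjusted p = 0.0114) over all libraries and -2.22 (adjusted p = 4.38e-05) without replicate 1 of the Lgr5-high cystine group. It was -2.27 (adjusted p = 1.77e-05) in libraries with Xist above 50 CPM alone, both by edgeR. That class does not hold Lgr5-high cystine replicate 1 either (0.939 CPM of Xist). Both values therefore rest on leaving out the library that went the other way, and are not separate results. The macrophage genes divided the same libraries in the opposite direction. The 3 others, Zc3h3, Mmp12 and Hoxb2, passed with limma-voom. Mmp12, a macrophage elastase, had medians of 2.79 and 0.301 CPM in Lgr5-high cells on cystine and control diet, with 7 of 7 cystine libraries above all Lgr5-high controls. In Lgr5-low cells the medians were 0.139 and 1.24 CPM, with overlap, so both populations fed its difference of 4.51. Hoxb2 had a median of 0 CPM in Lgr5-high cystine libraries and 4.97 CPM in the Lgr5-high controls. Zc3h3 had 0 counts in all 7 Lgr5-low control libraries, so no fold is given for it.

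The libraries also fell into 2 classes by Xist, the transcript that silences 1 X chromosome in females, above or at most 50 CPM. In each population 4 control and 5 cystine libraries were above and 3 control and 2 cystine libraries below. Many group values differed between these classes. The enterocyte list had a median of 0.28 with 24 of 27 members positive in the class above, and of -1.22 with 2 of 27 positive and 14 negative members at an unadjusted p under 0.05 in the class below, beside 3.56% of all genes there. In the test of the difference between classes described next, 4 of its 27 genes were at an unadjusted p under 0.05 and 0 passed the adjusted threshold. Over both classes the macrophage list was positive, at 2.46 above (19 of 19 tested members) and 0.61 below (15 of 17), while the Kupffer list was at 2.66 above and 0.08 below. The class below holds Lgr5-high cystine replicate 1 as 1 of its 2 libraries of that group. A test of the difference between classes, added after the data were seen, called 1 gene among 12495, Rnf114, a ubiquitin ligase (0.53 above, -3.04 below, adjusted p = 0.0268 by edgeR). At an unadjusted p under 0.05 it had 1467 genes, 11.7% of those tested, against 3.32% for the difference of diet effects itself. The class and the replicate numbers cannot be told apart, since control replicates 1 to 3 and cystine replicates 1 and 2 made up the class below.

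**Figure D5:**
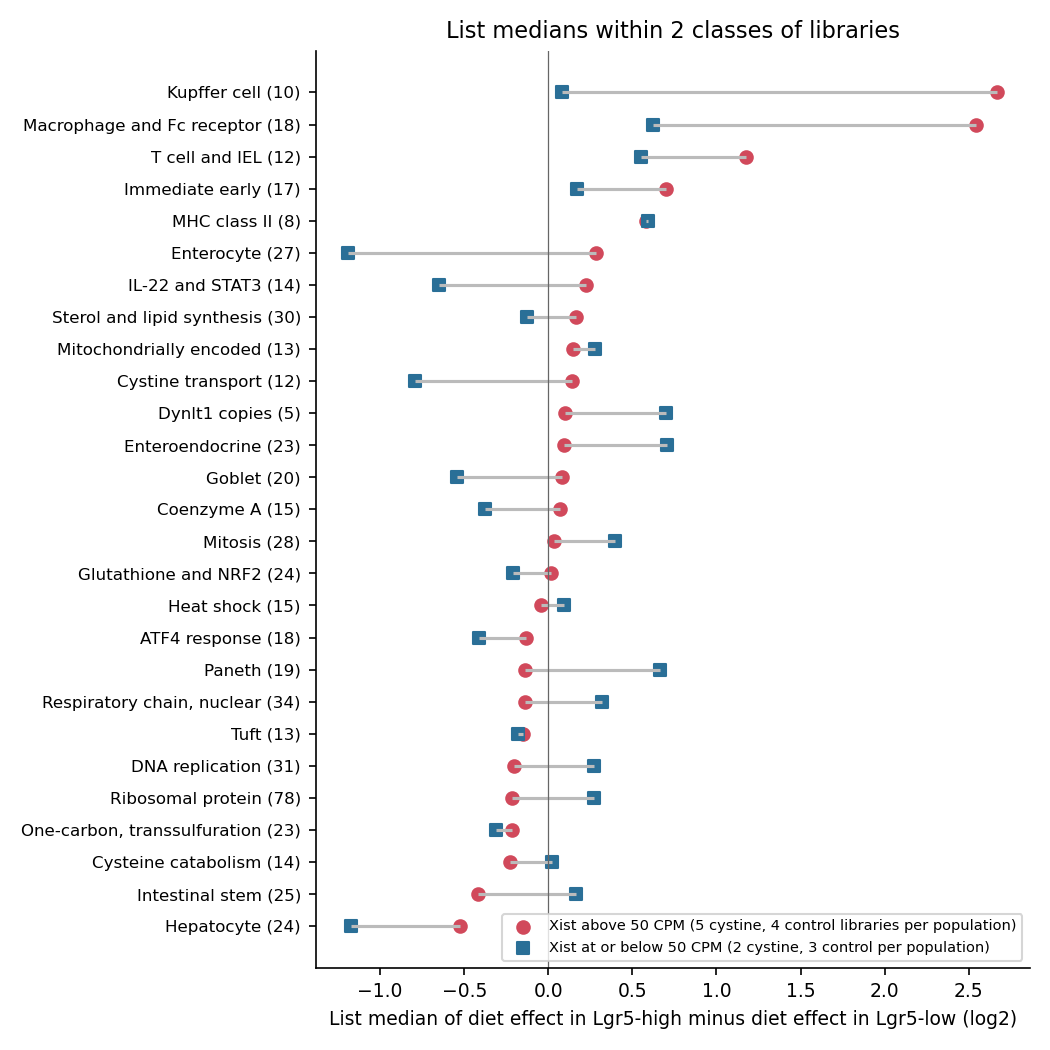
Median difference of diet effects (log2, x axis) of 27 gene lists within libraries with Xist above 50 CPM (circles) and at or below 50 CPM (squares), from 1 model over all libraries, with the number of tested members in brackets. The enterocyte list lies at 0.28 above and -1.19 below, and the macrophage list at 2.54 above and 0.62 below.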

How the data were processed

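RNA was sequenced in 28 libraries of Lgr5-GFP mice. The deposited values are estimated counts, given as whole numbers by gene and made with Salmon 1.3.0 on mm10 per the submitters' processing notes. Annotation and gene summing: not given in the sources used here. Libraries were poly(A)-selected and stranded, per the labels' protocols. Salmon divides reads among similar transcripts by a model. Genes without a symbol (1243) held at most 0.0111% of a library and stayed in.

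The difference of diet effects was fitted with edgeR 4.0.16 (R 4.3.3): TMM factors, filterByExpr, a robust quasi-likelihood fit, a mean per group over 28 libraries, and two-sided p-values adjusted by Benjamini-Hochberg over 12495 genes at 0.05. Standard errors are the log2 value over the root of F. The common biological coefficient of variation was 0.629. Depth and mitochondrial share were tested by exact permutation of diet labels within each population. The script was tested on simulated data. Alternatives used DESeq2 1.42.0, limma 3.58.1, other filters, factors and terms, thinning, and omissions. Coordinates are from GENCODE (GRCm38).

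The lists, the members and the motif were chosen with earlier results of these data known. Named genes are the 12 of lowest p in each direction with a mean of at least 2 CPM, from each described list the 2 to 4 members with the smallest p, plus Lgr5, Olfm4, Il22 and Il22ra1. Predicted genes were counted and not named by this rule. 1 gene that the rule names is not reported here.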

Additional observations from a re-analysis of the deposited data

Results flagged for a closer look

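Of 104 groups of 7 libraries examined for a single library far from the rest (Dixon's criterion at 95%), 13 had one, where chance gives about 1 in 20. Replicate 1 of Lgr5-high control had low total counts (4.05 M against 13.1 to 21.4 M in the other 6), low Clta (27.8 CPM against 53.1 to 66.5), low Eef2 (144.0 CPM against 200.7 to 242) and high Fam98b (119.7 CPM against 36.3 to 52.3). Replicate 1 of Lgr5-high cystine had low Cd68 (5.24 CPM against 31.4 to 97.3), low Tyrobp (3.05 CPM against 35.0 to 96.9), low Srgn (0.861 CPM against 6.29 to 13.6) and high Eef2 (224 CPM against 103 to 136). Replicate 1 of Lgr5-low cystine had a high mitochondrially encoded share (19.2% against 14.2% to 15.7%) and high Fam98b (66.1 CPM against 26.0 to 33.8). Replicate 1 of Lgr5-low control had low Scd1 (0.675 CPM against 10.4 to 19.0). Replicate 4 of Lgr5-low control had 0.847 CPM of Vav3 where the other 6 had at most 0.296. Replicate 6 of Lgr5-high control had low Cabcoco1 (11.6 CPM against 21.8 to 29.4). Of these 13, 11 were in libraries numbered 1.

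The difference of diet effects for Rnf114 itself differed between the classes of libraries above and at or below 50 CPM of Xist, by 3.57 log2 units (edgeR, adjusted p = 0.0268).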

How the results depend on the processing

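The difference of diet effects called 0 genes in 10 of 13 settings other than leaving out single libraries. It called 6 genes with limma-voom (3 in each direction), 2 in libraries with Xist above 50 CPM alone and 1 without the libraries under 5 M. Leaving out each of the 28 libraries gave 0 to 1 genes. The single genes were Gm9493 without Lgr5-low cystine replicate 1, H2aj without Lgr5-high cystine replicate 1 and Zc3h3 without Lgr5-high cystine replicate 6. Both of these libraries numbered 1 were also absent from the libraries with Xist above 50 CPM, and the Lgr5-low one was under 5 M. The cause was not tested.

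The replicate numbers were treated as no pairing, since the labels give none. Same-numbered libraries of the 2 populations correlated between -0.083 and 0.239, with 5 of 14 pairs over 0.1. Of 14 libraries 7 matched best with their own number, more than chance among 7 candidates gives. The Xist class followed the number in both populations. Whether the numbers mark shared animals is not settled by this. With a replicate block within diet the test called 0 genes, with 496 at an unadjusted p under 0.05, and with a replicate block across all groups 0, with 469. In the exact permutation tests with the replicate block the depth difference of -1.92 had p = 0.0169 and the mitochondrial difference of 2.57 points had p = 0.159.

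Of 104 single-gene values 9 changed sign under some setting. With Xist above 50 CPM alone Scg2 was -0.26, Vil1 0.23, Slc3a2 0.16 and Nfu1 -0.087. With Xist at or below 50 CPM alone Junb was -0.57, Dnaja1 0.061, Eif5a 0.54 and Olfm4 0.57. Without the libraries under 5 M Rps15 was 0.064. Leaving out single libraries moved Olfm4 between -0.35 and 0.021, above 0 in 4 of 28 cases. The causes were not tested.

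Genes between 2 and 10 CPM had a median 95% interval of 1.64 log2 units to either side, against 0.54 above 100 CPM. Of the 4317, 121 were at an unadjusted p under 0.05, beside 415 of all 12495 genes (3.32%).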
